A study of Xenopus laevis with 111 samples.

Results

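This report concerns 19 of the 45099 gene models of *Xenopus laevis* whose levels were higher with Torin1 than with DMSO on each of 3 days after spinal cord transection, and whose mean difference between transected and sham-operated cords at 16-21 h after surgery lay within fixed limits. The genes were selected on the measured values. CPM is the expected count of a gene divided by the total of its library in mega (M) counts. A gene was taken when the log2(CPM + 1) of the Torin1 library minus that of the DMSO library was at least 0.4 at 1, 2 and 4 days post transection (dpT), and when the mean transected minus sham difference over the 9 pairs of libraries at 16-21 h lay between -0.6 and 0.6. The Torin1 minus DMSO differences and the 16-21 h differences therefore describe the selection and received no test.

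The Torin1 experiment used tadpoles at NF stage 50, all of them transected, and the paper's methods state that they were kept for the first 24 h in 1 µM Torin1 or in 0.05% DMSO. It held 3 Torin1 libraries and 3 DMSO libraries, 1 per day and treatment, each from the pooled caudal spinal cords of 15 animals. The time series held 36 libraries from transected cords and 36 from sham-operated cords of untreated tadpoles at the same stage between 0.5 and 21 h, 25 from uninjured cords in 2 separate series, and 8 from the 0 h time point that transected and sham cords share, each a pool of 10 or 12 cords. Library totals were 21.2 to 32.5 M expected counts in the Torin1 experiment and 9.96 to 76.6 M, with a median of 18.3 M, in the time series. In pooled tissue, more cells of a type and more RNA per cell cannot be told apart.

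Torin1 blocks the kinase mTOR, the catalytic subunit of the complexes mTORC1 and mTORC2. mTORC1 joins signals from growth factors, amino acids and energy, and when active it promotes protein synthesis and ribosome production and restrains autophagy and the expression of lysosomal genes. *X. laevis* tadpoles at this stage repair a transected spinal cord, and proliferating cells that line the central canal take part in the repair. The deposited tables identify genes by model number only, and 0 of the 45099 identifiers matched the 44456 genes of the RefSeq table used here. No gene symbol, function or sequence could therefore be given, and neither the tissue label nor the mTORC1, autophagy and cell type gene lists could be checked. The genes are called M1 to M19 in order of their mean CPM over the 6 libraries of the Torin1 experiment. M3 is Xelaev18019129m.g, M8 is Xelaev18039339m.g and M15 is Xelaev18018897m.g.

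The requirement of all 3 days removed most genes. The Torin1 minus DMSO difference reached 0.4 in 2899 genes at 1 dpT, in 1941 at 2 dpT and in 888 at 4 dpT, and 146 genes reached it at both 1 and 2 dpT. At all 3 days, 28 genes reached it. Of these, 9 lay above the upper limit of the 16-21 h difference and none lay below the lower limit, which left the 19. The mirrored requirement, a difference of -0.4 or lower on all 3 days, was met by 71 genes, of which 64 also met the 16-21 h limit. At the edge of the selection, the smallest of the 3 daily differences was 0.40 in the last gene inside and 0.38 in the first gene outside, and the largest 16-21 h difference was 0.58 inside and 0.68 just outside. Of the 9 genes left out, the farthest had a 16-21 h difference of 3.74.

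The 16-21 h mean pools 3 pairs of S5 and 6 of S6, and it hides differences between these series. Within S5 alone, 3 of the 19 genes had a mean outside the limits (M3 at -0.84, M14 at 0.66 and M17 at 1.12), and within S6 alone 2 did (M12 at 0.69 and M18 at -0.64). M17 was near 0 CPM in all libraries of S6. In S5 it had 7.47, 6.67 and 6.63 CPM in transected cords at 16, 17 and 18 h, against 2.41, 3.47 and 2.14 CPM in sham cords, and 6 of the 9 pairs behind its pooled difference of 0.36 held almost no counts of it.

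Across the 19 genes the Torin1 minus DMSO difference was largest at 1 dpT, the end of the incubation. Its median was 1.41 at 1 dpT (range 0.44 to 3.16), 0.70 at 2 dpT (0.42 to 1.90) and 0.62 at 4 dpT (0.40 to 2.36), all on the log2(CPM + 1) scale, which understates the change of genes with few counts. The difference was largest at 1 dpT in 14 genes, at 2 dpT in 2 and at 4 dpT in 3. At 1 dpT, 11 of the 19 were at least 2-fold higher on that scale, beside 0.548% of all 45099 genes. The same was true of 6 genes at 2 dpT, beside 0.164% of all genes, and of 4 genes at 4 dpT, beside 0.0532%. The median difference of the 24021 genes with a mean CPM of at least 1 was -0.02, 0.07 and 0.00 on the 3 days. These counts follow from the selection, and each day compares single libraries, so they carry no replicate check.

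**Figure D1:**
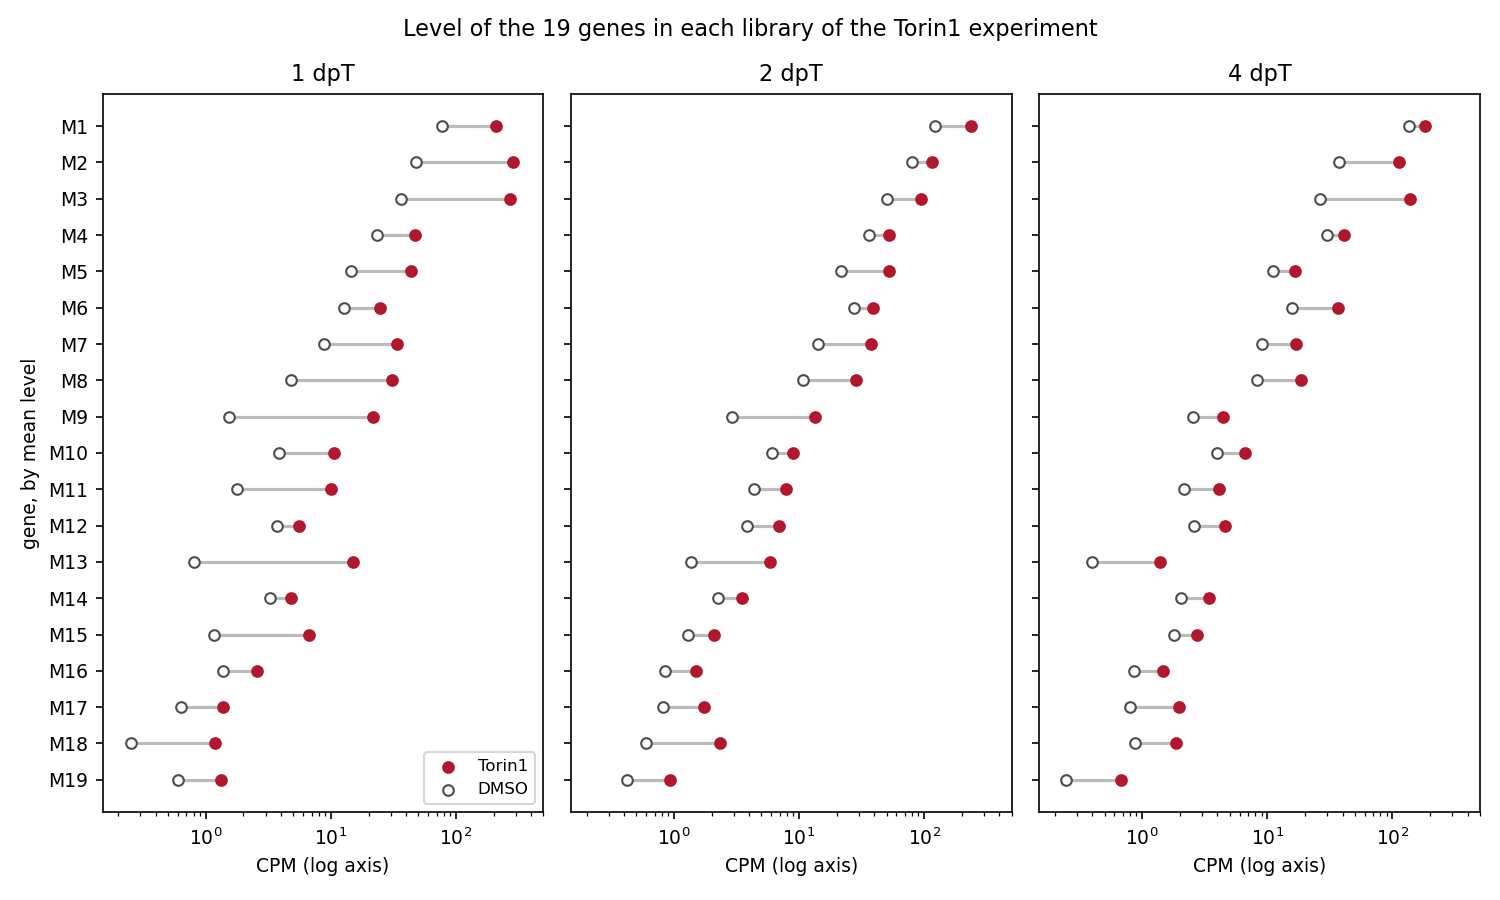
CPM (log axis) of the 19 genes, ordered by mean level, in the Torin1 libraries (filled) and the DMSO libraries (open) at 1, 2 and 4 dpT, 1 library per point, with grey lines joining the libraries of a day. Every gene is to the right with Torin1, as selected. Most lines are longest at 1 dpT, where M13 is 18.7-fold and M9 14.0-fold higher. The lines of M6, M14, M17 and M19 are longest at 4 dpT.

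Most of the genes had a lower level at 4 than at 1 dpT with Torin1, and the levels with DMSO differed less between these days. Between 1 and 4 dpT the median of the log2 difference over the 19 genes was -0.60 in Torin1 cords, where 3 genes were higher at 4 dpT, and 0.05 in DMSO cords, where 11 genes were higher at 4 dpT. At 2 dpT, 16 of the genes were higher than at 1 dpT in DMSO cords (median log2 difference 0.55), against 8 in Torin1 cords (median -0.22 for Torin1). In 16 of the 19 genes the lowest Torin1 library of the 3 days exceeded the highest DMSO library, which was the case in 1.71% of all genes. M5, M6 and M11 were the exceptions. The selection used the same 6 libraries and favours such a separation, so the count of 16 describes the selection.

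M3 kept the widest separation at 4 dpT. It had 269, 93.7 and 139 CPM at 1, 2 and 4 dpT with Torin1, against 36.3, 50.1 and 26.3 CPM with DMSO. The ratios were 7.42, 1.87 and 5.28, with exact 95% intervals for counting error of 6.94 to 7.94, 1.76 to 1.99 and 4.91 to 5.69. The difference was thus smallest on the middle day, where the DMSO level was highest and the Torin1 level lowest. M2 was also closest to DMSO at 2 dpT, with 287, 115 and 113 CPM with Torin1, against 48.1, 79.8 and 37.6 CPM with DMSO, and its Torin1 levels at 2 and 4 dpT were nearly the same.

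M8 had 30.9, 28.3 and 18.6 CPM at 1, 2 and 4 dpT with Torin1, against 4.80, 10.7 and 8.30 CPM with DMSO. Its smallest daily difference, 1.08, was the largest smallest difference among the genes with a mean CPM of at least 5. The ratios were 6.43 (5.33 to 7.77), 2.65 (2.33 to 3.02) and 2.24 (1.94 to 2.60). The measured ratio of M8 was thus above 2 on all 3 days, but its interval at 4 dpT reached below 2. Its log2 differences at 2 and 4 dpT, 1.33 and 1.08, were smaller than its SD of 1.89 between uninjured pools of neighbouring hours.

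The largest ratios belonged to genes that were scarce with DMSO. M13 had 15.1, 5.84 and 1.40 CPM with Torin1, against 0.807, 1.36 and 0.399 CPM with DMSO, and its DMSO library at 4 dpT held 13 expected counts. M9 had 21.7, 13.5 and 4.45 CPM with Torin1, against 1.54, 2.89 and 2.55 CPM with DMSO. In both genes each later Torin1 library had a lower level than the one before, and the ratio to DMSO at 4 dpT was 3.50 in M13 and 1.75 in M9.

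M6 had 24.7, 38.9 and 36.8 CPM with Torin1, against 12.7, 27.3 and 15.9 CPM with DMSO, and its difference was largest at 4 dpT. M17 was also farthest apart at 4 dpT, with 1.37, 1.73 and 1.98 CPM with Torin1, against 0.632, 0.812 and 0.799 CPM with DMSO. M1, the most abundant of the genes, had 208, 238 and 183 CPM with Torin1, against 77.6, 121 and 135 CPM with DMSO. Its difference was smaller on each later day, and the DMSO level was higher on each.

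M15 was separated mainly at 1 dpT, with 6.70, 2.07 and 2.76 CPM with Torin1, against 1.16, 1.30 and 1.78 CPM with DMSO. M16 was the gene nearest the limit of the selection at 4 dpT, with 2.55, 1.49 and 1.46 CPM with Torin1, against 1.37, 0.845 and 0.860 CPM with DMSO. Its interval for counting error at 4 dpT reached down to a ratio of 1.04.

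The mean CPM of the 19 genes over the 6 libraries ranged from 0.70 to 161 with a median of 6.69. At the low end, 7 genes had fewer than 50 expected counts in at least 1 of the 6 libraries, and M18 and M19 had fewer than 10. The time series gave a measure of the spread between pools that the Torin1 experiment lacks. Among 22 differences between uninjured pools of neighbouring hours, the SD per gene ranged from 0.25 to 2.14 on the log2 scale with a median of 0.47. The Torin1 minus DMSO difference exceeded the gene's SD on all 3 days in 11 of the 19 genes, and 2 SD on all 3 days in 2. It exceeded 2 SD in 11 genes at 1 dpT, in 5 at 2 dpT and in 4 at 4 dpT. The selection favours such counts. In M1, M4, M7, M10, M12, M13 and M14 the SD was below the daily limit of the selection. These genes therefore had to exceed their SD on all 3 days. The share of all genes that exceed their SD was not computed. The counts thus describe the selection, are not a test and cannot show that the differences exceed the spread between pools. M8 and M18 had the widest spread between neighbouring uninjured pools, with SDs of 1.89 and 2.14.

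The sequences behind the models varied widely in length. The effective transcript length, recovered from the deposited expected counts and FPKM, ranged from 193 to 9633 bases over the 19 genes with a median of 2954, beside a median of 2643 in the 24021 genes with a mean CPM of at least 1. M4 and M10 had consecutive model numbers and so may be neighbours or parts of 1 locus, but no map of these models was used here. In 14 of the 19 genes every expected count in the 6 libraries was whole, as it is when no read is divided between models, beside 58.7% of the 24021 genes. M1, M2, M3, M8 and M18 had fractional counts in these 6 libraries, and their levels are uncertain where reads were divided among near-identical copies. Over all 111 libraries, which include the time series, all 19 genes had some fractional counts. In M7 and M4, 25.2% and 31.5% of the counts above 0 were whole.

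Whether the 19 genes also responded to transection itself was tested at the hours that the selection did not use. Transected and sham libraries of the same series and hour were taken as pairs, and 1 edgeR quasi-likelihood model over 32328 genes gave the difference in each window, with the pair as a block and Benjamini-Hochberg adjustment over all genes. All 19 genes passed the filter on counts. The model calls a difference at an adjusted p under 0.05. For this comparison, rose and fell mean called higher or lower in transected than in sham cords of the same hours, and not a change over time. Hours of a series stood in for replicates, so its p-values measure the spread between these pools. At 3-6 h 4 pairs came from S3 and 1 from S4. At 7-10 h 4 pairs came from S4 and 1 from S5. At 11-15 h 2 pairs came from S4 and 5 from S5. Calls in these 3 windows thus rest mostly on 1 batch of animals each. The selection had removed genes that were far apart at 16-21 h, which is not independent of a gene's difference in the window before it.

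At 0.5-2 h (10 pairs) none of the 19 genes was called in either direction, beside 4.34% of all genes called higher in transected cords and 2.20% called lower. DESeq2 also called none. With edgeR, 5 of the genes had an unadjusted p under 0.05. The share of all genes at that level was not computed, so this count cannot be set against it. The median fitted log2 difference was 0.04, and 13 genes lay above 0.

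At 3-6 h (5 pairs) 5 of the 19 genes rose after transection, beside 2.99% of all genes, and none fell, beside 1.37%. The median fitted log2 difference was 0.58 in the 19 genes and 0.00 in all genes, and 17 of the 19 lay above 0. At 7-10 h (5 pairs) 6 genes rose, beside 3.92% of all genes, and 1 fell, beside 2.10%. There the median was 0.43, against -0.01 in all genes, and 18 of the 19 lay above 0. At 11-15 h (7 pairs) 7 genes rose, beside 11.5% of all genes, and 1 fell, beside 11.4%. The median was 0.39, against -0.02 in all genes. Over these 3 windows 8 of the 19 genes rose in at least 1, beside 12.8% of all genes, and 4 of them (M2, M6, M8 and M16) rose in all 3, beside 1.65%. In none of the 4 windows were 9 of the 19 called, beside 70.8% of all genes. The 8 genes that rose had a median level of 26.3 CPM in the Torin1 experiment, against 4.54 CPM in the other 11, and the part of depth in the calls was not tested.

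**Figure D2:**
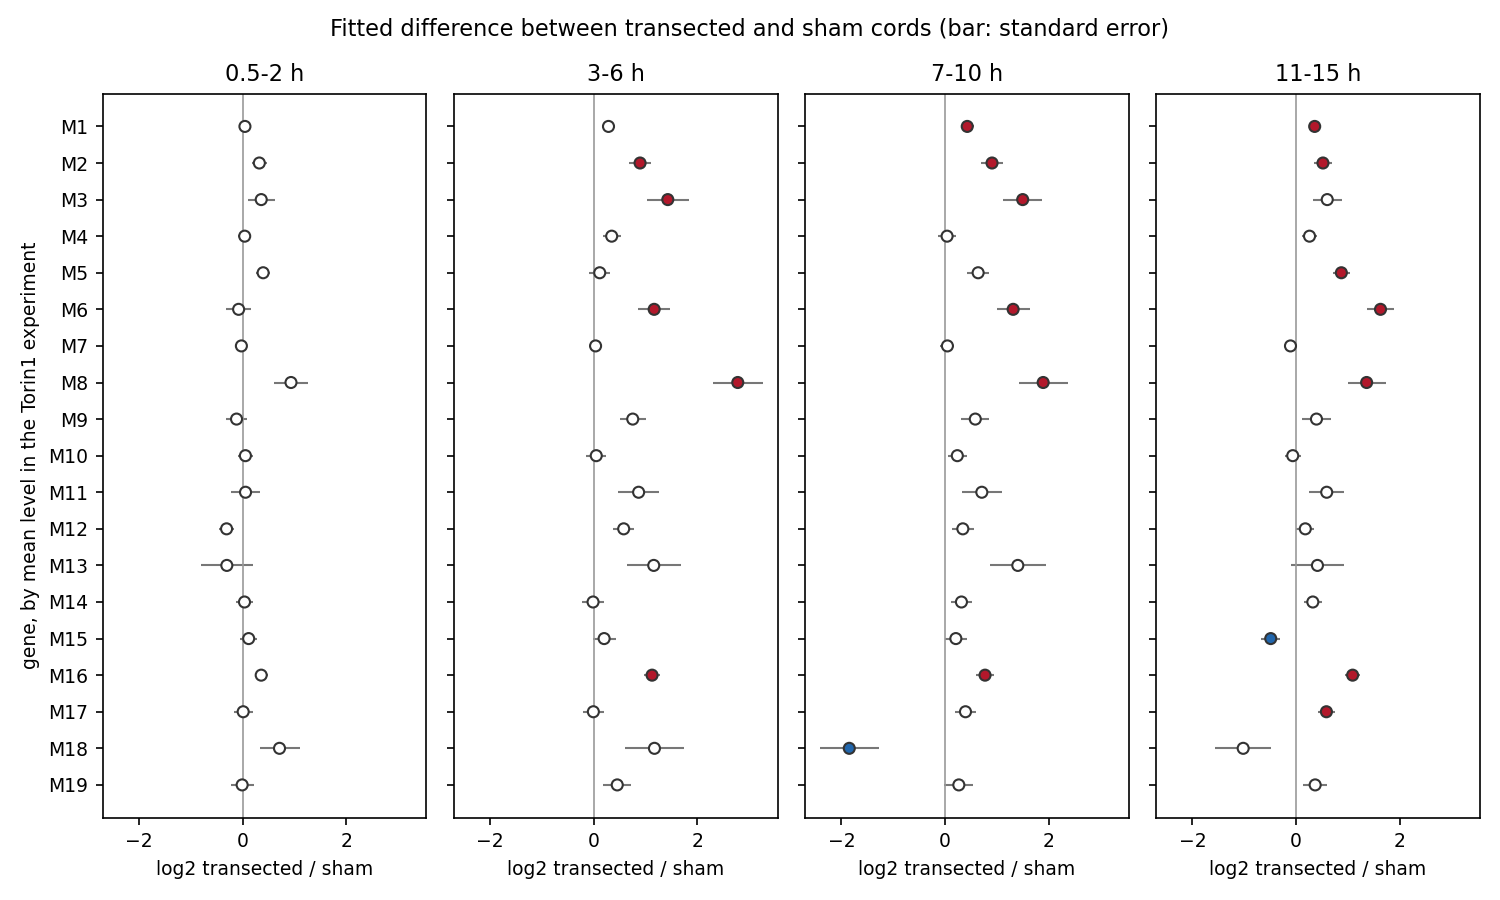
Fitted log2 ratio of transected over sham cords for the 19 genes in 4 windows, with standard errors as bars. Filled points passed an adjusted p of 0.05, red for higher and blue for lower in transected cords, and most points lie near 0 at 0.5-2 h and right of 0 at 3-6 h and 7-10 h, where the medians are 0.58 and 0.43.

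The 64 genes that were lower with Torin1 on all 3 days, with the same 16-21 h limit, had other counts. None of them rose and 2 fell at 3-6 h, beside 2.99% and 1.37% of all genes. None was called at 7-10 h, beside 3.92% of all genes called higher and 2.10% called lower. At 11-15 h 6 rose and 2 fell, beside 11.5% and 11.4% of all genes. At 0.5-2 h, 13 of these 64 rose and 0 fell, beside 4.34% and 2.20% of all genes. The difference between the lists was not tested.

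M8 had the largest fitted rise of the 19 genes at 3-6 h and 7-10 h. At 3-6 h it had 14.6, 39.5, 65.4, 67.6 and 35.7 CPM in the 5 transected libraries, against 10.8, 3.86, 10.9, 4.35 and 3.68 CPM in their sham pairs, and the groups did not overlap. It rose 6.86-fold in the model (log2 2.78 ± 0.48 SE, adjusted p = 0.000114, edgeR), and was higher in 5 of 5 pairs. At 7-10 h it had 16.8, 15.8, 14.2, 19.0 and 104 CPM in transected cords, against 3.85, 4.12, 7.25, 5.91 and 15.7 CPM in sham cords. The rise was 3.72-fold (log2 1.89 ± 0.48 SE, adjusted p = 0.00816), and without the S5 pair at 10 h, the only pair of that series, it was 1.63 on the log2 scale with an adjusted p of 0.0886. At 11-15 h the transected libraries lay between 11.9 and 143 CPM (median 74.4). The sham libraries lay between 9.82 and 37.7 CPM (median 20.6), a 2.57-fold rise (adjusted p = 0.00507, edgeR). In that window the S4 pairs differed by -0.13 and 0.57 on the log2(CPM + 1) scale, against 1.51 to 2.09 in the S5 pairs.

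The sham level of M8 itself differed between the windows, which hold different series. At 0 h it was 5.72 CPM in S3 and 2.19 CPM in S4, the series of the 3-6 h pairs. Against 0 h cords of the same series, sham cords had no called difference in M8 in the 4 windows tested. Its sham median was 29.5 CPM at 0.5-2 h, 4.35 CPM at 3-6 h, 5.91 CPM at 7-10 h, 20.6 CPM at 11-15 h and 41.8 CPM at 16-21 h. The transected medians were 75.4, 39.5, 16.8, 74.4 and 42.3 CPM in the same windows. Uninjured cords had medians of 67.0 CPM at 3-6 h and 48.4 CPM at 7-10 h, with single libraries from 4.80 to 159 CPM over all hours. Each series covers only part of the hours, so levels in different windows and in different series cannot be told apart, whereas each pair is compared within 1 series.

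M3 was also higher after transection in these windows. At 3-6 h it had 4.82, 6.10, 14.7, 6.85 and 11.6 CPM in transected cords, against 6.18, 2.47, 2.58, 4.45 and 1.84 CPM in sham cords, higher in 4 of 5 pairs. It rose 2.69-fold (log2 1.43 ± 0.41 SE, adjusted p = 0.0312), and the call was lost without the S3 pair at 4 h (adjusted p = 0.0731), the S3 pair at 5 h (0.287) or the S4 pair at 6 h (0.139). At 7-10 h it had 9.62, 10.4, 15.9, 11.8 and 30.6 CPM in transected cords, against 1.92, 2.85, 6.08, 4.20 and 15.1 CPM in sham cords. All 5 pairs were higher, with a 2.83-fold rise (adjusted p = 0.00726). At 11-15 h its difference of 0.60 on the log2 scale did not pass the test (adjusted p = 0.122).

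M3 and M2 also rose with the hour in cords that had no surgery. In the 25 uninjured libraries the fitted slope of M3 was 0.15 per hour on the log2 scale (adjusted p = 0.00033), and its level was 9.43 and 12.4 CPM in the 2 libraries at 0.5-2 h and between 33.8 and 85.8 CPM, with a median of 78.8 CPM, in the 6 libraries at 16-21 h. The slope of M2 was 0.085 per hour (adjusted p = 0.0124), a call that was lost without the 0 h libraries (adjusted p = 0.143). These 2 of the 19 genes rose with hour, beside 1.49% of all genes, and none fell, beside 2.66%. The uninjured hours from 1 to 11 h came from S7 only and those from 14 h from S8 only, so hour and series overlap in part. Per the paper, 1 batch of animals gave both series. Hours stood in for replicates, so the slope p-values measure the spread between these pools and not between batches. Whether the hour at which the Torin1 and DMSO cords were collected bears on M2 and M3 was not tested.

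M2 rose after transection by 1.86-fold at 3-6 h, 1.88-fold at 7-10 h and 1.43-fold at 11-15 h (adjusted p = 0.00611, 0.00322 and 0.0225). At 3-6 h it had 27.2, 42.8, 70.4, 48.8 and 43.2 CPM in transected cords, against 29.9, 20.1, 23.5, 27.2 and 24.7 CPM in sham cords, and it was lower only in the transected pool at 3 h. Without the S3 pair at 5 h its rise at 3-6 h lost the call (adjusted p = 0.101).

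M6, a gene with 24.7 to 38.9 CPM under Torin1, had its largest fitted difference in the latest of the windows tested. At 11-15 h it lay between 8.29 and 19.4 CPM (median 10.9) in transected cords and between 2.60 and 4.67 CPM (median 3.58) in sham cords, without overlap, a 3.09-fold rise (log2 1.63 ± 0.26 SE, adjusted p = 6.51e-06). At 3-6 h it had 5.93, 10.5, 9.72, 8.49 and 10.5 CPM in transected cords, against 4.66, 4.22, 3.10, 3.55 and 5.63 CPM in sham cords (2.24-fold, adjusted p = 0.0167). At 7-10 h it had 5.07, 6.07, 4.46, 15.7 and 19.9 CPM in transected cords, against 4.32, 3.14, 3.51, 2.07 and 5.00 CPM in sham cords (2.49-fold, adjusted p = 0.00633). The calls at 3-6 h and 7-10 h were each lost when certain single pairs were left out, with adjusted p up to 0.127 without the S3 pair at 5 h and 0.112 without the S4 pair at 10 h.

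**Figure D3:**
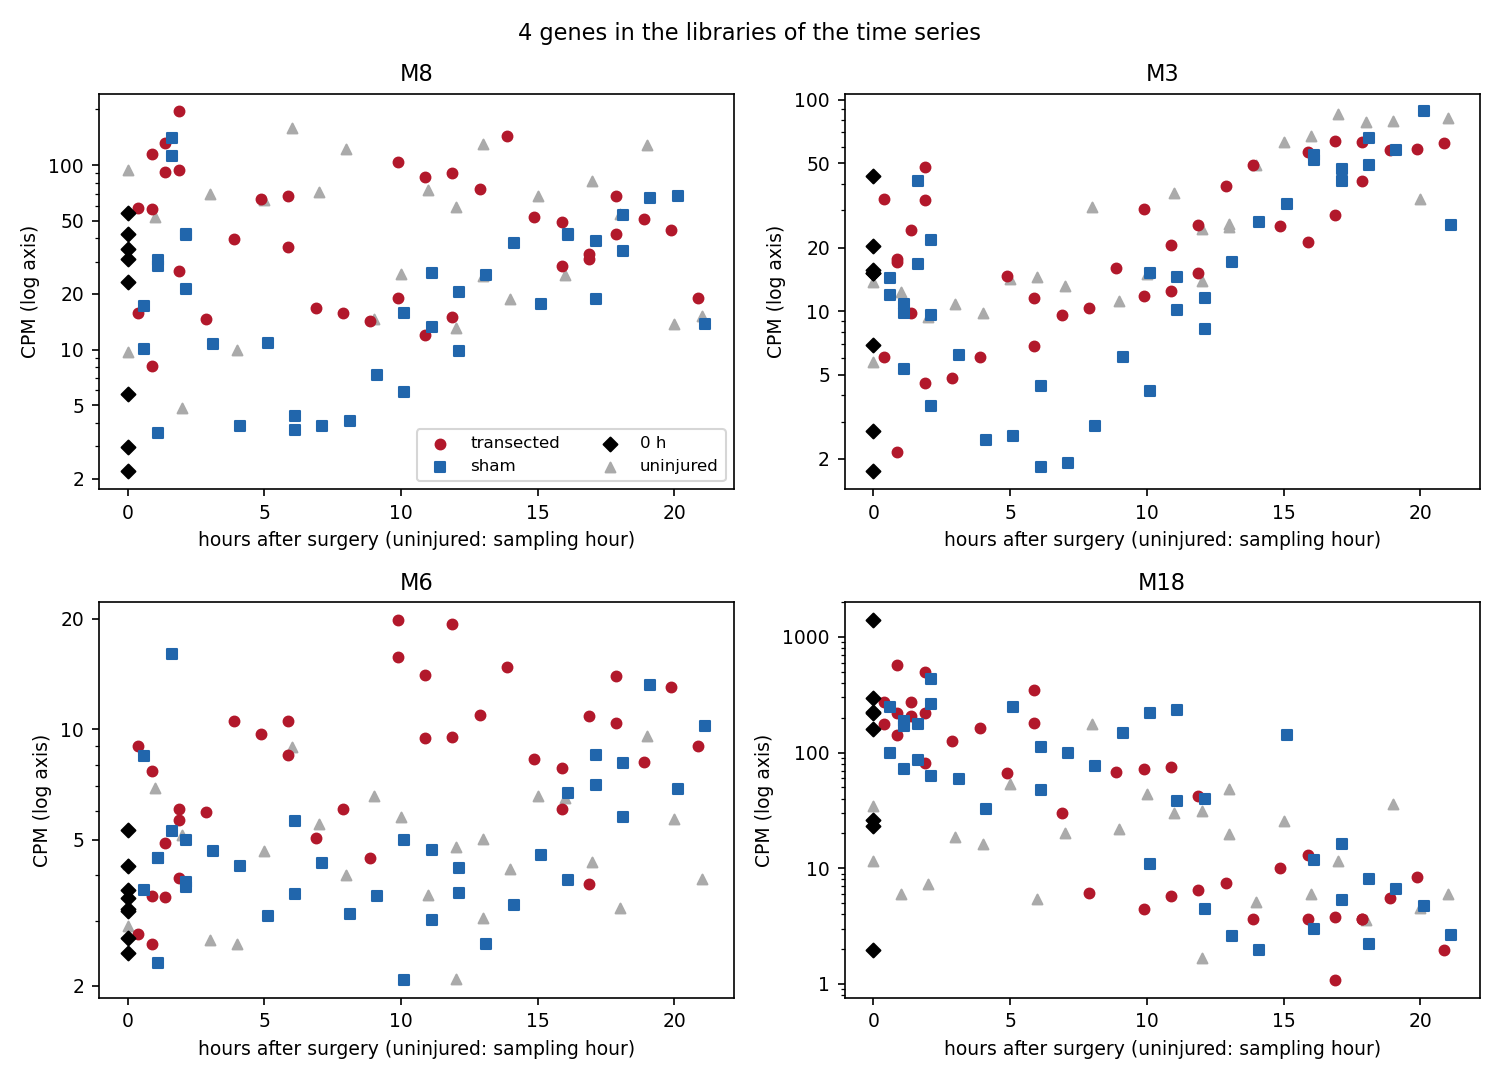
CPM (log axis) of M8, M3, M6 and M18 against the hour in the 105 time-series libraries, 1 point per library. In M8 and M3 the sham points (squares) reach down to 3.68 and 1.84 CPM at 3-6 h while the transected points (circles) mostly lie above them, M6 separates most at 11-15 h, and M18 spreads from 1.08 to 1403 CPM.

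M16 rose by similar amounts in the 3 later windows. Its level at 3-6 h was 5.46, 4.13, 4.01, 3.79 and 5.52 CPM in transected cords, against 2.57, 1.76, 2.22, 1.85 and 2.24 CPM in sham cords, with no overlap. It rose 2.18-fold at 3-6 h (adjusted p = 2.05e-06), 1.71-fold at 7-10 h (adjusted p = 0.00238) and 2.13-fold at 11-15 h (adjusted p = 3.05e-07). Without the pair block the rise at 7-10 h did not pass (adjusted p = 0.0973). Its 16-21 h difference of 0.58 was the largest that the selection let in, and it was higher in 9 of those 9 pairs.

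Of the remaining genes that rose, M5 had 5.13 to 17.2 CPM (median 11.3) in transected cords at 11-15 h, against 3.80 to 7.49 CPM (median 5.24) in sham cords, a 1.83-fold rise (adjusted p = 6.18e-05) with 7 of 7 pairs higher. M17 rose 1.50-fold in the same window (adjusted p = 0.0105), and its transected libraries, from 4.20 to 6.35 CPM, did not overlap the sham libraries, from 1.95 to 3.87 CPM. M1 rose 1.35-fold at 7-10 h (adjusted p = 0.0331) and 1.28-fold at 11-15 h (adjusted p = 0.0119). Its call at 7-10 h was lost without the S4 pair at 8, 9 or 10 h, with adjusted p up to 0.354.

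A pair of genes were called lower in transected than in sham cords, both with limits. M15 had 1.90 to 8.41 CPM (median 3.85) in transected cords at 11-15 h, against 2.80 to 11.8 CPM (median 5.04) in sham cords, a fitted log2 difference of -0.49 ± 0.18 SE (adjusted p = 0.047). It did not pass without the S5 pair at 12 h (adjusted p = 0.265), with library totals in place of TMM factors (0.0849) or without the pair block (0.134). M18 had 29.8, 6.10, 67.4, 71.5 and 4.44 CPM in transected cords at 7-10 h, against 99.9, 77.1, 149, 220 and 10.9 CPM in sham cords, lower in 5 of 5 pairs (log2 -1.85 ± 0.57 SE, adjusted p = 0.0414). At 0 h M18 had 26.2 CPM in S4 and 1.95 CPM in S5, the series of these pairs, so the call is relative to sham cords only. Leaving out any 1 of the 5 pairs ended the call, with adjusted p from 0.0584 to 0.214, as did the model without the pair block (0.177).

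**Figure D4:**
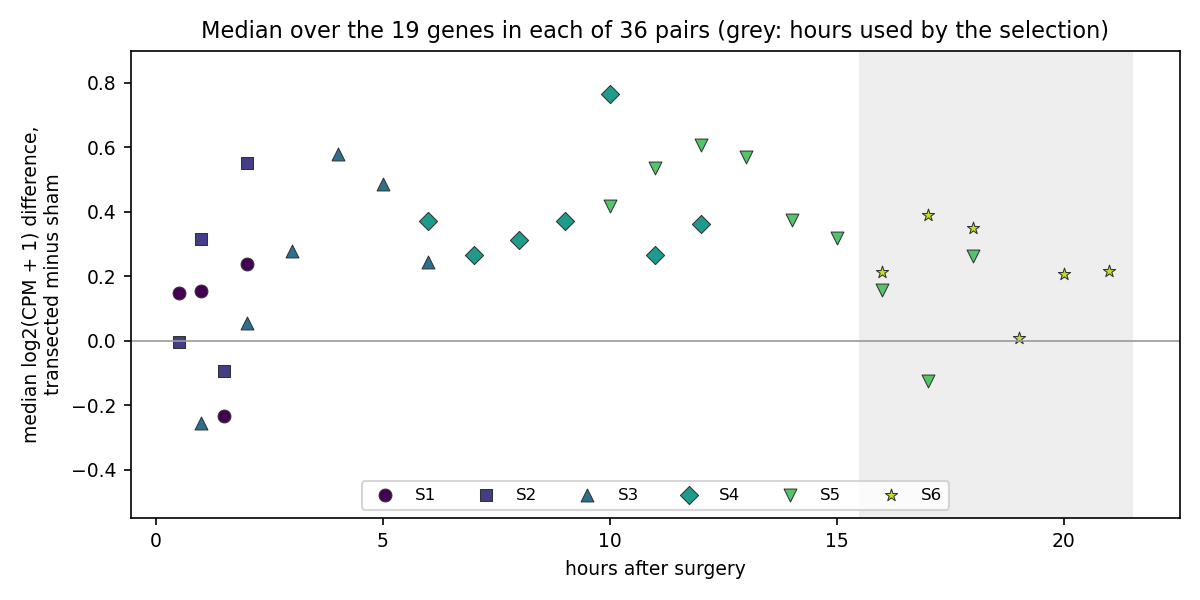
Median over the 19 genes of the log2(CPM + 1) difference, transected minus sham, in each of the 36 pairs against the hour, with a symbol for each series. The pair medians lie between -0.26 and 0.55 at 0.5-2 h and are above 0 in all 17 pairs from 3 to 15 h. The grey band marks the hours that the selection used.

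Pair by pair, the median log2(CPM + 1) difference over the 19 genes was positive in every pair from 3 to 15 h. It ranged from 0.24 to 0.58 in the 5 pairs at 3-6 h, from 0.26 to 0.77 in the 5 pairs at 7-10 h and from 0.27 to 0.61 in the 7 pairs at 11-15 h. At 0.5-2 h it ranged from -0.26 to 0.55. Within series, the median over the genes was 0.44 in S3 and 0.37 in S4 at 3-6 h, 0.38 in S4 and 0.42 in S5 at 7-10 h, and 0.27 in S4 and 0.36 in S5 at 11-15 h. At 16-21 h the selection limited each gene's mean. There the median over the genes of these means was 0.08 over 9 pairs, 0.05 in S5 and 0.19 in S6. The pair medians at 16-21 h ranged from -0.12 to 0.39, which overlaps the range of the earlier windows.

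After sham surgery, which has no part in the Torin1 contrast, 1 of the genes differed from its level at 0 h. Surgery and the time since 0 h cannot be told apart in this comparison. Sham cords were compared with the 0 h cords of the same series in 1 model with the series as a block. Hours of a series again stood in for replicates. M9 rose at 0.5-2 h, beside 0.603% of all genes called higher in sham cords. Its level was 0.978 to 5.94 CPM (median 3.87) in the 10 sham libraries, against 0.660 to 2.23 CPM (median 1.35) in the 8 libraries at 0 h, a 2.81-fold rise (log2 1.49 ± 0.27 SE, adjusted p = 0.00137). Only S1 to S3 held sham libraries at these hours, and their 0 h libraries lay between 0.864 and 1.73 CPM of M9. Without the series block the call was lost (adjusted p = 0.107). None of the 19 was called lower, beside 0.127% of all genes. In the later windows no gene of the 19 was called by edgeR or by DESeq2, beside 0.130% of all genes at 3-6 h, 0% at 7-10 h and 0% at 11-15 h. With edgeR, an unadjusted p under 0.05 was reached by 4 of the genes at 3-6 h and by 0 at 7-10 h and 11-15 h. Here too the share of all genes at that level was not computed, so no reading is drawn from these counts.

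The genes differed in how far their level depended on the series. The ratio of the highest to the lowest series median was 1.44 in M7 and 57.4 in M18, whose medians were 256 CPM in S1 and 4.46 CPM in S5. M17 was near 0 in all 13 libraries of S6, with a highest level of 0.0938 CPM, while its median was 5.04 CPM in S3 and 4.20 CPM in S5. The S6 pairs lie at 16-21 h, so they enter the selection value of M17 and none of the windows tested.

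Over the 105 time-series libraries, with levels centred on each series, the correlations between pairs of the 19 genes had a median r of 0.19 and a range of -0.28 to 0.88 over 171 gene pairs, and 13 gene pairs reached 0.5. The most alike were M2 and M3 (r = 0.88), followed by M2 and M8 (r = 0.73). These values are across libraries that share series, depth and hour and are descriptions only.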

How the data were processed

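Libraries were grouped by the sample labels. The authors used RSEM against version 9.1 of the Xenbase transcript models, aligning with Bowtie for the time series or Bowtie2 for the Torin1 experiment, and the deposited tables give for 45099 models an expected count, which is not normalized, a TPM and an FPKM. The deposited TPM, scaled by length and library, was used for 1 alternative selection and the deposited FPKM only for effective lengths. Basecalling used CASAVA 1.7 per the labels.

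The members and the lists were chosen with earlier results of these data known. Gene lists and markers needed symbols and were not applied. The 3 printed identifiers are the 2 genes with the largest smallest-of-3-days difference at a mean CPM of at least 5 and the 1 gene called lower at 11-15 h. The other genes described were picked with their values known.

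Rounded expected counts were tested for the 32328 genes that reached 5 counts at 4 time points of any 1 condition. The test was edgeR 4.0.16 in R 4.3.3 with TMM factors, the quasi-likelihood F-test and a Benjamini-Hochberg threshold of 0.05, and DESeq2 1.42.0, library totals, no filter, no block and leaving out pairs, libraries or series were alternatives. Models that left out 1 pair kept the dispersions of the full model. The tests were also run on simulated counts that had no pair or series effects, so that run cannot show how they behave where such effects exist. Python 3.11.15, pandas 2.3.3, scipy 1.17.1 and matplotlib 3.10.9 were used for the rest. Sham animals came from the same batches and hours as transected ones per the paper's methods, which gave 36 pairs. Paired libraries deviated together from the means of their groups and windows, with a correlation above 0.1 in 31 of the 36 pairs and a median of 0.47. These means pool several series, so the correlations cannot tell a shared hour from a shared series. Intervals are exact (Clopper-Pearson) and cover counting error only.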

Additional observations from a re-analysis of the deposited data

Results flagged for a closer look

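M3, M8, M15 and M18 at 0 h, their paired differences in 4 windows, and the medians over the 19 genes gave 24 groups of 5 to 10 values. In 4 of the 24 groups 1 value stood apart from the others by Dixon's ratio of gap to range. Chance alone sets apart about 1 in 20 groups when values are normally distributed. The 0 h groups were examined as CPM without a log, where high values lie farther apart, so that rate need not hold for them.

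M3 (Xelaev18019129m.g) had 43.7 CPM in the 0 h library of S6, while the other 7 libraries at 0 h lay between 1.75 and 20.3 CPM. M15 (Xelaev18018897m.g) had 16.7 CPM in 1 of the S1 libraries at 0 h, where the next highest had 8.04 CPM. M18 had 1403 CPM in the same S1 library, where the next highest had 298 CPM and the lowest 1.95 CPM. These are 0 h libraries, which enter no comparison of transected with sham cords. At 7-10 h the paired difference of M18 was -3.46 on the log2(CPM + 1) scale in the S4 pair at 8 h, and the other 4 pairs lay between -1.71 and -1.13. The adjusted p of M18 in that window was 0.214 without this pair.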

How the results depend on the processing

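The selection of 19 genes gave 29 genes with a pseudocount of 0.5 (18 shared), 8 with a pseudocount of 5 (7 shared) and 38 with TPM (14 shared), and dropping 1 day gave 76 to 114. TMM-scaled CPM gave the same 19 genes. With a pseudocount of 5 the median transected minus sham difference of the 19 genes was 0.23 at 3-6 h, 0.19 at 7-10 h and 0.14 at 11-15 h, against 0.45, 0.42 and 0.30 with a pseudocount of 1. The larger pseudocount shrinks the differences of genes with few counts by construction.

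Leaving out 1 pair gave 2 to 5 called genes at 3-6 h and 4 to 6 at 7-10 h, against 5 and 7 in the full model. Without the filter 1 gene was called at 0.5-2 h. Of 23 calls of single genes, 12 passed under every alternative tried and 11 lost the call under at least 1, and none changed direction. Pairs were left out 1 at a time only at 3-6 h and 7-10 h, where 7 of the 12 calls tried were lost. The calls at 11-15 h faced only the loss of the S5 pair at 12 h, so their dependence on other pairs was not tested. Without the pair or series block as replicate block, 4 of the 21 calls tried were lost (M9, M15, M16 and M18), and sham against 0 h gave 0 called genes of the 19 at 0.5-2 h and 1, lower, at 3-6 h, against 1 and 0. Among all genes, that model called 124, 1550, 1722 and 875 genes from the earliest to the latest window of sham against 0 h, where the blocked model called 236, 42, 0 and 0. Without S5 the blocked counts were 401, 144, 106 and 128, DESeq2 gave 87 at 3-6 h and no filter gave 1 at 11-15 h. Without the 0 h libraries the uninjured slope was called in 1 of the 19 genes and in 189 of all genes, against 2 and 1340. Leaving out the S3 pair at 6 h lowered the count of all genes at 3-6 h to 856, against 1411, and leaving out the S5 pair at 10 h lowered that at 7-10 h to 1238, against 1948. Other than by fewer libraries, the cause of these shifts was not tested. Genes with few counts, 7 of which had fewer than 50 expected counts in a library of the Torin1 experiment, limit the precision of single ratios.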
